A study of Picea abies with 19 samples.

Results

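The 200 brightest spruce probes of Norway spruce root ends were taken from 32144 spruce probes, each printed once per array. Of these, 2613 read above background on all 19 arrays, meaning that the median pixel of the spot exceeded the median of its local background by more than 2 background standard deviations. Within each array the spruce probes were ranked by net intensity, the deposited net value of each spot in scanner units. This value is close to, but not exactly, the spot median minus the background median. The 200 probes of highest mean rank over the 19 arrays were kept. They make up 0.622% of the spruce probes and 7.65% of those always above background. The members were thus chosen by their intensity on these arrays, so their levels and ranks are described without a test. The files name probes by number only and no gene name or probe sequence was used here, so members carry no gene role and the tissue could not be checked against marker genes.

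Root ends of cuttings hold the root cap, the dividing tissue behind it and the elongating cells, and the short roots of conifers are the organs that take up water and minerals and that ectomycorrhizal fungi colonise. The brightest spots of an expression array usually stand for abundant transcripts, such as those of ribosomes, the cytoskeleton and basic metabolism. Brightness also depends on the probe itself, so the order of brightness among probes is no order of transcript abundance.

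The arrays were hybridised 1 sample each with amplified RNA carrying the dye AlexaFluor 647, from washed adventitious roots of nursery-grown Picea abies cuttings on peat. Each sample pooled several root ends of 1 of 8 genotypes, and sampling fell in late September for cuttings 5 or 18 months after root initiation. A prefix of the titles, Fast or Slow, splits the genotypes into what are called growth classes here, without the sources saying what the words measure. The fast 18-month group held 7 arrays, with 1 of genotype 15 and 2 each of genotypes 18, 20 and 35. The slow 18-month group held 8 arrays, with 2 each of genotypes 52, 61, 70 and 76. The 5-month arrays were 1 of genotype 20 and 1 of genotype 35 (fast) and 2 of genotype 52 (slow). The labels call these biological samples without saying whether they came from separate plants. The p-values for genotype and age therefore measure the spread between samples, which may in part be technical. Those for growth class measure the spread between genotype means.

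Several arrays stand apart or have doubtful labels. Between 15.4% and 57.5% of spruce probes were above background on an array, and the lowest share was on slow 18-month replicate 2 (genotype 76). The columns of slow 18-month replicate 1, the other array of genotype 76, name a channel of another wavelength than its own file name and all other files do. The files' names carry dates, taken here as scan days and numbered 1 to 9. Days 1 to 4 form period 1, days 5 to 7 form period 2, and period 3 (days 8 and 9) held both arrays of genotype 76 and no others. The authors' deposited table disagrees with the scanner files on which sample is which. After each probe was centred, 11 scanner files matched 1 table column at correlations across probes of 0.849 to 0.947, and in all 11 cases that column carried another genotype's name. The remaining scanner files reached at most 0.552 with any column, and no scanner file was most like the column of its own name. The scanner files' labels are used throughout, and each result below depends on them.

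The median member was brighter than the median of the other detected probes on every array, as the rule requires. The members' median net intensity per array was lowest at 27278 on slow 18-month replicate 8, was 34144 on the median array and was highest at 45123 on slow 18-month replicate 2. It was 10.1 to 15.7 times the median of the other 2413 probes always above background, with a median ratio of 12.9. The members carried 20.5% to 27.6% of the summed net intensity of all spruce probes, and again slow 18-month replicate 2 was highest. Not every member was bright on every array, since the lowest read 578 on slow 18-month replicate 2 and 1710 on slow 18-month replicate 7, below the medians of 2880 and 2317 of the other always detected probes there. By growth class and age these shares overlapped, at 22.5% to 25.8% in the fast and 20.8% to 27.6% in the slow 18-month arrays, 22.6% and 22.8% in the fast and 20.5% and 23.4% in the slow 5-month arrays.

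**Figure D1:**
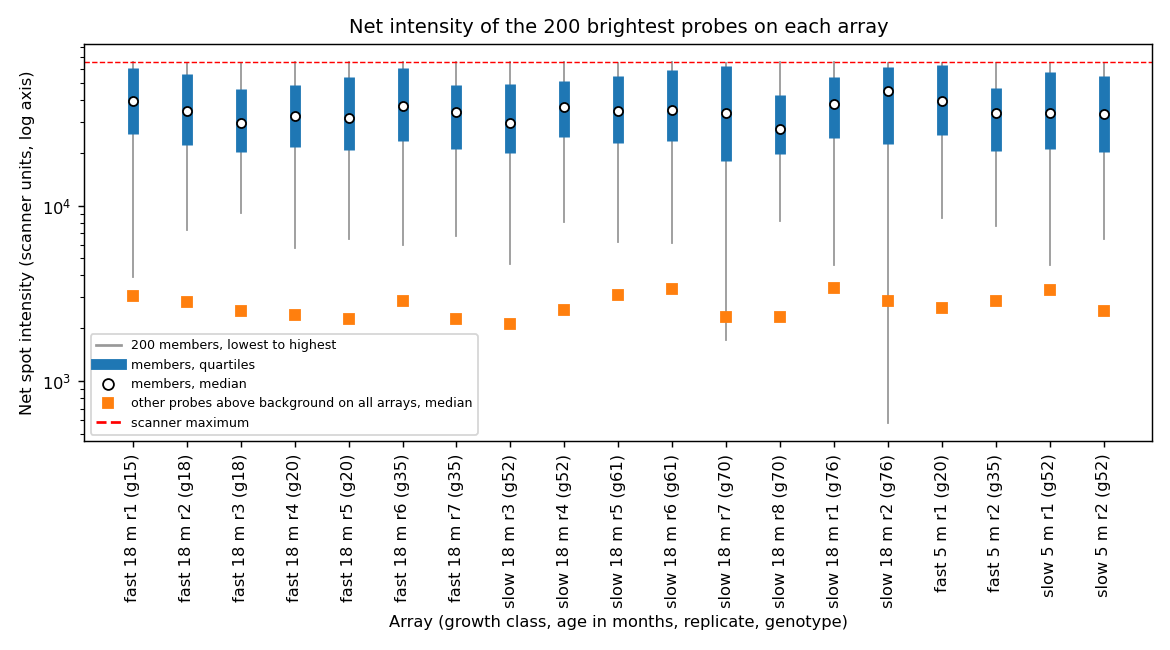
Net spot intensity (log axis, scanner units) of the 200 members on each of the 19 arrays: grey lines run from the lowest to the highest member, blue bars between the quartiles, and white circles mark the median. Orange squares are the median of the other 2413 probes always above background, and the red dashed line is the scanner maximum; the lowest member fell to 578 on slow 18-month replicate 2.

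Within the set, brightness spanned a wide range. The median net intensity of a member over the 19 arrays was lowest at 15523 for Spruce_01494, had quartiles of 24143, 33974 and 50160, and was highest at 65204 for Spruce_02388. In all, 29 members had a median of at least 60000, 116 of at least 30000 and 15 of under 20000. The edge of the set was not marked by a step. The last members by mean rank were Spruce_08828 (31791.684), Spruce_21351 (31790.526) and Spruce_23242 (31785.895), where 32144 is the brightest possible rank. The first probes outside were Spruce_18380 (31785.789), Spruce_02766 (31783.0) and Spruce_13961 (31782.158). Spruce_18380 read the scanner maximum on 5 arrays but fell to a net intensity of 601 on slow 18-month replicate 2. A further 2 probes, Spruce_07336 and Spruce_11355, had a mean rank high enough for the set but were above background on 18 arrays only.

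The scanner limited part of this set. Its maximum is 65535, and a spot whose median pixel reads that value has only a lower bound. Of the 3800 member readings, 484 (12.7%) were at the maximum, against 64 readings among all other spruce probes and none among the 2848 control spots. The files' own saturation column held 0 for every spot. An array had 13 to 40 members at the maximum, with a median of 27. The fewest were on slow 18-month replicate 1 (13), slow 18-month replicate 3 (14), and fast 18-month replicate 4 and slow 18-month replicate 4 (15 each), of which the last 3 are the arrays of scan day 4. The most were on fast 18-month replicate 6 (40) and the fast 5-month array of genotype 20 (39).

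By probe, 107 members never reached the maximum, 28 did so on 1 array, 46 on 2 to 9 arrays and 19 on 10 or more. Spruce_01647 and Spruce_22913 were at the maximum on 18 arrays, and Spruce_02388, Spruce_22202 and Spruce_09769 on 17. No member was at the maximum on every array. Among readings at the maximum the net intensity ran against the local background median, with rank correlations between −0.973 and −0.762 across the members of an array. A plain difference of the medians would give a perfectly inverse order, so the net value also holds something else. The spot median is fixed in that stretch, so the order of members there is no measurement of the spots. Giving all such readings 1 shared rank kept the same 200 probes.

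**Figure D2:**
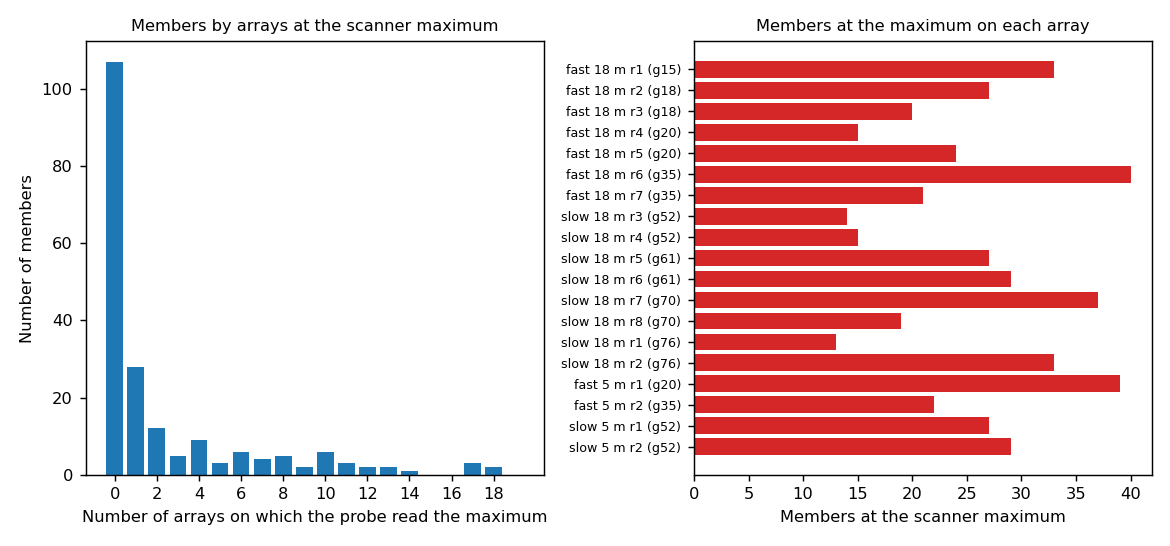
Left, number of members (vertical axis) by the number of arrays on which the probe read the scanner maximum; 107 members never did and 28 did on 1 array. Right, number of members at the maximum on each array, from 13 on slow 18-month replicate 1 to 40 on fast 18-month replicate 6.

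The top 12 members by mean rank were Spruce_01647, Spruce_02388, Spruce_22913, Spruce_22202, Spruce_17656, Spruce_03358, Spruce_09066, Spruce_12627, Spruce_09769, Spruce_19816, Spruce_04291 and Spruce_20872. They carried 1.98% to 2.61% of the net intensity of an array. The leading probe, Spruce_01647, had net intensities of 64790 to 65439 in the fast 18-month, 64800 to 65384 in the slow 18-month and 64768 to 65085 in the 5-month arrays, so the groups overlapped at the scanner limit. Spruce_22913 read 64690 or more on 18 arrays and 40591 on the first slow 5-month array, where the other slow 5-month array of genotype 52 read 65041. Spruce_09769 was at the maximum on 17 arrays but read 43635 on the genotype 15 array and 34523 on slow 18-month replicate 2. Most readings of these 3 probes are bounds, so the groups could not be compared in them.

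Ranks were shared between arrays in part. Between 117 members (slow 18-month replicate 7) and 145 members (fast 18-month replicate 1 and slow 18-month replicate 4) were among the 200 brightest of a given array, with a median of 129. In all, 569 probes were among the 200 brightest of at least 1 array, and 27 were so on all 19, all of them members. In all, 171 members, counting those 27, never fell below place 1000 on any array, where place 1 is the brightest of 32144. Slow 18-month replicate 2 held 15 members below place 1000 and slow 5-month replicate 1 held 5, and without slow 18-month replicate 2 the count of members never below place 1000 was 185. The mean rank correlation of an array with the other 18 over the members was 0.154 for slow 18-month replicate 2 and 0.360 to 0.568 for the rest. Over the probes always above background it was 0.524 for that array and up to 0.823 elsewhere. These correlations share probes and are a description.

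**Figure D3:**
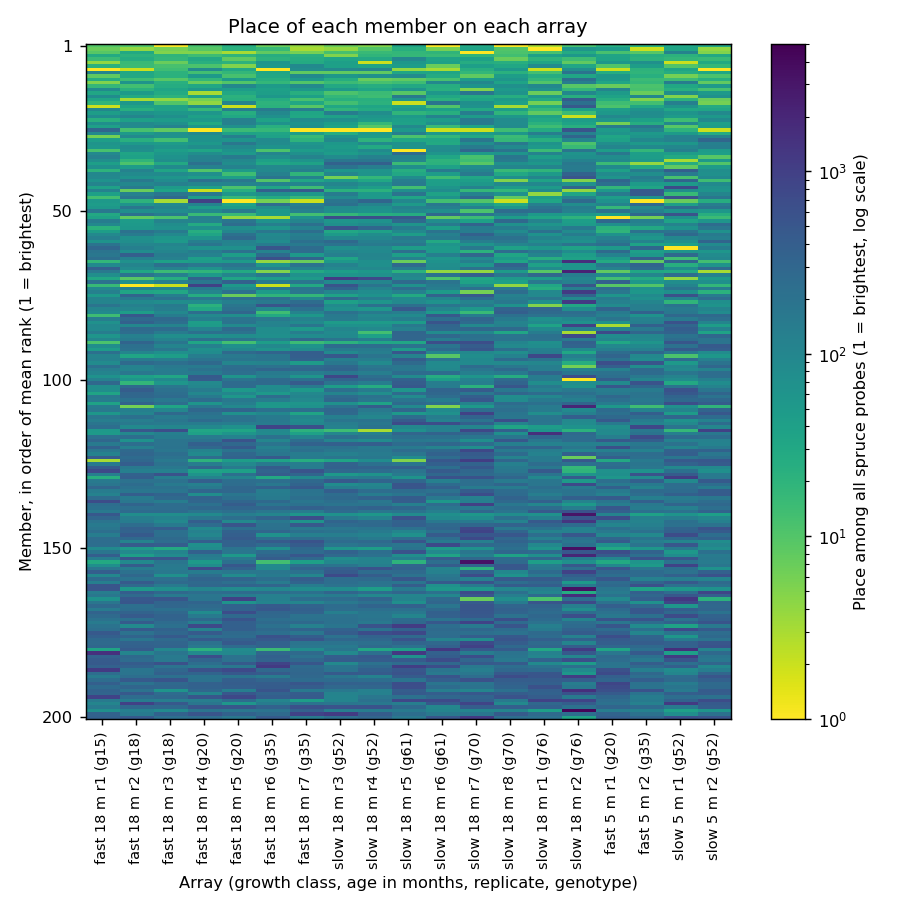
Place of each of the 200 members (rows, in order of mean rank) on each array (columns) among the 32144 spruce probes, on a log colour scale where yellow is brightest and dark is dimmest. Dark cells gather in the column of slow 18-month replicate 2, where Spruce_08828 fell to place 4410.

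The members that fell furthest did so on 1 array each. Spruce_08828 was at place 4410, Spruce_07984 at 3402, Spruce_04234 at 3384 and Spruce_10284 at 3095 on slow 18-month replicate 2, and Spruce_17053 was at place 3316 on slow 18-month replicate 7. The net intensity of Spruce_08828 was 578 on that array of genotype 76, whereas its lowest reading on any fast 18-month array was 15445 and on any 5-month array 36052. Spruce_17053 read 1710 on slow 18-month replicate 7 and 19672 on slow 18-month replicate 8, both of genotype 70, and was at the maximum on 4 arrays. In both cases the arrays of the same genotype lay far apart.

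Other ways of ranking kept most of the set. The 200 brightest by the spot median without background subtraction were the same 200 probes. Averaging within genotypes first kept 193, the mean of normalised log2 intensity kept 187, the authors' deposited table kept 184 and leaving out genotype 76 kept 184. The deposited table, whose values are on a log2 scale, had a median of 12.12 for members and 8.57 for the other probes always above background, and its mean placed every member within its first 400. Ranking on the 15 arrays of 18 months alone kept 194 members, and ranking on the 4 arrays of 5 months alone kept 166. The lists from either age shared 160 of their 200 probes (80.0% of each), and the smaller number of 5-month arrays makes that list less exact. Both lists were drawn from the probes above background on all 19 arrays. Each thus also rests on arrays of the other age, which favours sharing. With single arrays left out, the background condition was set on the remaining arrays. Leaving out slow 18-month replicate 2 then kept 171, the fewest for any single array, against 193 to 199 for the others. Leaving out genotype 76 changed the ranks only and kept the condition on all 19 arrays, so 171 and 184 are not like for like.

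The files also describe the shape and pixels of each spot. Relative to the other probes always above background, the standard deviation of pixels over the spot median was lower on 19 of 19 arrays, with medians of 0.552 and 0.736 on the median array. The measured spot diameter was smaller on 19 of 19 arrays, at 10.8 and 11.1 in the files' units, and the spot's aspect value was lower on 19 of 19, at 1.06 and 1.09. The median local background was higher around members on 15 arrays and lower on 1, at 322 and 318. The local background and the spot median were used by the rule, and the other features share pixels with the intensity, so these differences are descriptions and no independent support.

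Members lay in 43 of the 48 print blocks, with at most 11 in 1 block. Blocks 1 to 6 held 2 members (1%), although 12.6% of spruce probes and 5.70% of those always above background lay there, and 4 of the 5 blocks without a member were among them. Row 26 of the blocks held 18 members (9.0% of them), while 4.25% of the probes always above background and 3.66% of spruce probes lay there, and no other row held more than 11. Only 1 pair of members were direct neighbours. The 708 spruce probes next to a member had a median net intensity of 101 on the median array, against 90.1 for the other 31236, and were higher on all 19 arrays. Of these neighbours 8.33% were always above background, against 7.54% of the others. By probe number, 4 equal stretches of the series of 32144 numbers held 54, 54, 57 and 35 members, where 681, 704, 668 and 560 probes were always above background.

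For the comparisons between samples, spot medians were background-corrected, quantile-normalised over the 19 arrays and put on the log2 scale, and the fits covered the 16012 spruce probes above background on at least 4 arrays. All 200 members are in that fit because the rule required it. At 18 months the standard deviation of a member over the 15 arrays had a median of 0.57 log2 units, against 0.67 for the other 2413 probes always above background. The 107 members never at the maximum had a median of 0.57 as well. The rule ranked probes on these same arrays, which favours steadily bright probes, and the scanner maximum caps the spread of bright probes. The lower spread of members is therefore a description. Between arrays of 1 genotype the members' median standard deviation was 0.49, and between genotype means it was 0.43. The spread between genotype means exceeded that within genotypes for 64 of 200 members (32%), against 42.9% of the other probes always above background. Genotype means average arrays, mostly in pairs, so they vary less than single arrays do even without a genotype difference. These shares therefore give no measure of how much genotypes differ.

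The steadiest members never at the maximum were Spruce_02439 (standard deviation 0.24), Spruce_22552, Spruce_16802, Spruce_20642 and Spruce_07890. Spruce_02439 ranged from 15.19 to 15.41 in log2 units in the fast and from 14.96 to 15.89 in the slow 18-month arrays, and was 14.60, 15.86, 15.82 and 15.48 in the 5-month arrays. Its lowest and highest 5-month readings therefore spanned more than the 7 fast arrays did. The most variable were Spruce_04234, Spruce_08828, Spruce_10284, Spruce_05300 and Spruce_09510. Of these 5, Spruce_09510 was lowest on the genotype 15 array, and the other 4 were lowest on slow 18-month replicate 2.

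The likeness of arrays differed by genotype, scan period and scan day, which were not separated. Over the log2 levels of the 107 members never at the maximum, the correlation of 2 arrays of 18 months had a median of 0.375 for the 7 pairs of 1 genotype and 0.219 for the 98 other pairs. Without genotype 76 the medians were 0.514 for 6 pairs and 0.255 for 72. The ranges overlapped, from 0.0575 to 0.765 and from −0.276 to 0.755. By scan period, the 4 pairs of 1 genotype from the same period had a median of 0.676 and the 3 from different periods had 0.375, 0.152 and 0.0575 (median 0.152). Pairs of different genotypes had medians of 0.381 (35 pairs) in the same period and 0.163 (63 pairs) across periods, so across periods the pairs of 1 genotype were no more alike in the median. Pairs of different genotypes scanned on the same day correlated at 0.755 and 0.662 on day 4, 0.641 on day 6 and 0.735 on day 7. On day 2 such pairs correlated at 0.532, 0.00288 and −0.146. The closest pair of 1 genotype, that of genotype 52 at 0.765, was also of day 4. The pairs share arrays and one normalisation, and no test was made.

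The 5-month arrays, which had no part in the genotype comparison, were set against genotypes as well. For genotypes 20, 35 and 52 the deviation of each of the 107 members from the mean over the 3 genotypes was taken at each age, so the 3 deviations of a probe at 1 age are not independent. The 5-month array of genotype 35 correlated with genotype 35 at 18 months at 0.405 across members, and with genotypes 20 and 52 at −0.277 and −0.200. The array of genotype 20 correlated with its own genotype at 0.236, and the arrays of genotype 52 with theirs at 0.0586 and 0.398. Of these, the array at 0.398 shared period 1 with both 18-month arrays of its genotype and the array at 0.0586 did not, while that of genotype 35 was scanned in another period than its 18-month arrays and that of genotype 20 shared a period with 1 of 2. Each of the 4 arrays had its highest correlation with its own genotype. Over the other 2413 probes always above background the correlations with the own genotype were 0.144, 0.307, 0.115 and 0.223, in the order of genotypes 20, 35, 52 and 52.

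Some pairs of members varied together, and no like count was made for other probes. Over 5671 pairs of the 107 members never at the maximum the median correlation across 19 arrays was 0.0162, and 37 pairs exceeded 0.8. The closest pair was Spruce_10284 and Spruce_04234 at 0.976, which was 0.878 without slow 18-month replicate 2. Both were also low on the genotype 15 array, at 13.71 and 13.59, whereas their other fast 18-month readings were 15.09 or more. The next pair, Spruce_07293 and Spruce_25330, correlated at 0.935 and at 0.941 without that array. These pairs were picked as the highest of all, and arrays share genotype and normalisation.

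Between the 8 genotypes at 18 months 1 of 200 members passed the moderated F-test of limma (0.5% against a background of 0.575% of probes called). Without adjustment 22 members had a p below 0.05 (11%, background 15.3%). Neither share exceeded its background. The difference between the highest and lowest genotype mean had a median of 1.24 log2 units among members and 1.65 among all probes tested. Taken by period, 20 members were called within period 1 (background 15.2%) and 20 within period 2 (background 14.5%), each from a fit with few replicated genotypes. The count also turned on the arrays of genotype 76. It was 39 without slow 18-month replicate 1 (background 33.3%), 6 without slow 18-month replicate 2 (background 3.29%) and 5 without both (background 3.75%), and it was 0 with scan period as a term (background 0.319%). With readings at the maximum left missing 152 members could be tested and 0 were called (background 0.595%), but Spruce_00695 was then among those that could not be tested.

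Spruce_00695 was the member that passed. Its log2 readings were 13.63 and 13.29 in genotype 18 and 14.04 and 12.97 in genotype 70. They were 15.82 in genotype 15, 15.96 and 15.95 in genotype 20, 15.46 and 15.99 in genotype 35, 15.99 and 15.99 in genotype 52, 15.64 and 15.19 in genotype 61, and 15.74 and 15.98 in genotype 76. Genotypes 18 and 70, 1 of each growth class, lay below all the others without overlap. Both arrays of genotype 52 were at the scanner maximum, so it was at least 5.80-fold brighter than genotype 18 (13.46 ± 0.25, SD, n = 2) and at least 5.61-fold brighter than genotype 70 (13.51 ± 0.76, SD, n = 2), at an adjusted p of 0.0462 over genotypes. This adjusted p ranged from 0.00268 to 0.242 over the alternatives, and 15 of them, among them scan period as a term (0.161), left it above the threshold. The other 12 alternatives left it below. Those above the threshold included each removal of a single 18-month array outside genotypes 15 and 76. At 5 months the 2 arrays of genotype 52 read 15.99 and 12.72, further apart than the 2.53 between the highest and lowest genotype means at 18 months.

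The next 4 members by p did not pass, and their values are given as readings. Each passed under some alternatives, with adjusted p (limma) of 0.00882 to 0.258 for Spruce_27080, 0.00577 to 0.799 for Spruce_25778, 0.0111 to 0.985 for Spruce_15715 and 0.00491 to 0.819 for Spruce_23217 over all of them. Spruce_27080 read 12.77 and 12.86 in genotype 76 and 12.97 and 13.05 in genotype 61, whereas the other 18-month arrays read 14.02 to 15.88 (adjusted p = 0.0702, limma). Spruce_25778 read 12.88 and 13.34 in genotype 35, below the 14.52 to 15.95 of every other 18-month array (adjusted p = 0.0946, limma). The 5-month array of genotype 35 read 12.95, and the other 5-month arrays read 14.75 to 15.60.

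Spruce_23217 had the same 3 arrays lowest. It read 14.01 and 13.79 in genotype 35 at 18 months and 13.74 at 5 months, below the 15.25 to 15.99 of all other arrays (adjusted p = 0.145, limma). Genotypes 20 and 70 were at the maximum on both 18-month arrays, so each was at least 4.27-fold brighter than genotype 35 (13.90 ± 0.15, SD, n = 2). The 3 arrays of genotype 35 were scanned on days 2, 3 and 6, so for these 2 members the low readings were not of 1 scan day. Spruce_15715 read 12.55 and 13.13 in genotype 52 at 18 months (adjusted p = 0.114, limma) but 15.99 and 15.83 in genotype 52 at 5 months, and is described with the ages.

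**Figure D4:**
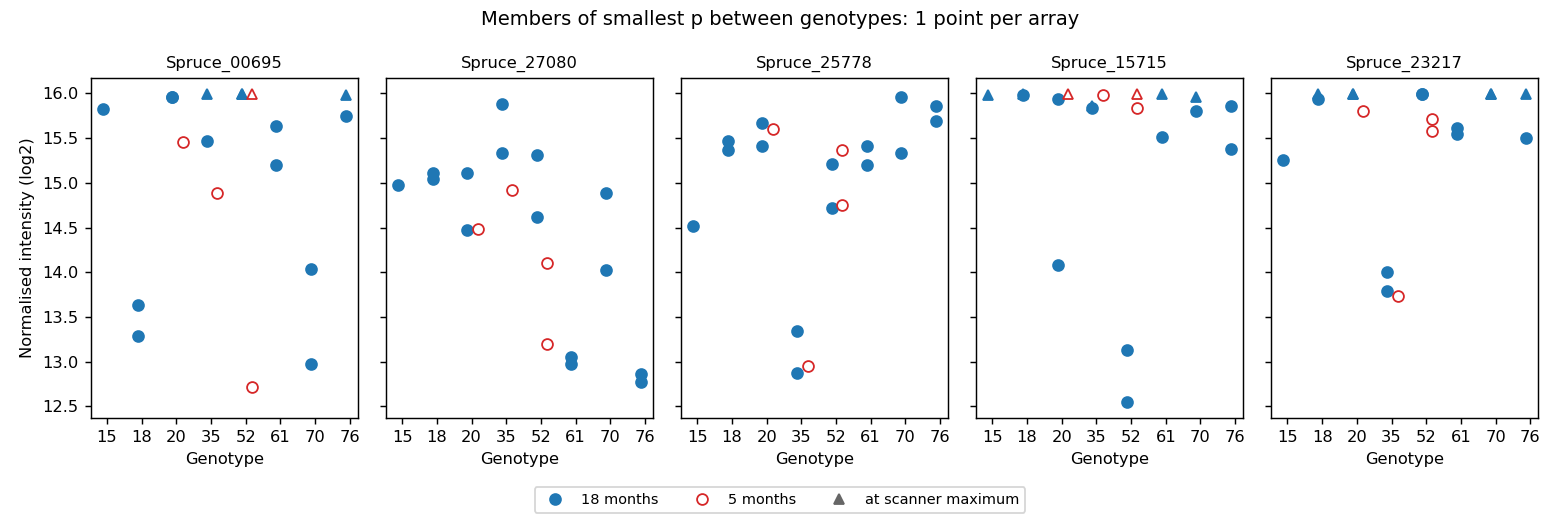
Normalised log2 intensity of the 5 members of smallest p between genotypes, by genotype (horizontal axis), 1 point per array; filled blue is 18 months, open red is 5 months and triangles are readings at the scanner maximum. Genotype 35 is lowest at both ages in Spruce_25778 and Spruce_23217, while genotype 52 is split at 5 months in Spruce_00695.

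Between growth classes no member passed when genotype means were compared, 4 slow against 4 fast at 18 months (0 of 200, background 0%, limma). No adjusted p was below 0.99982. Without adjustment, p was below 0.05 for 3 members higher in slow genotypes (background 0.806%) and 6 lower (background 1.66%), in all 4.5% against 2.46% of probes. The slow minus fast difference was above 0 for 84 members and below 0 for 116, with a median of −0.06 log2 units against −0.04 over all probes tested. On either side of the estimate its 95% interval reached 0.77 log2 units for the median member, and 100 members had both ends of their interval within 1 log2 unit of 0.

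The members of smallest p between classes were all lower in slow genotypes, and none passed. Spruce_04670 ranged from 15.13 to 15.92 in the 7 fast arrays (median 15.73) and from 11.97 to 15.63 in the 8 slow arrays (median 14.30), so the classes overlapped. Its difference between genotype means was −1.28 ± 0.44 (SE, 4 genotypes a class, limma adjusted p = 0.99982). Its lowest value came from slow 18-month replicate 1, of genotype 76.

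Spruce_01018 ranged from 15.17 to 15.74 in fast arrays and from 13.07 to 15.91 in slow arrays. Genotypes 61, 70 and 76 lay below every fast array and genotype 52 did not. Its difference was −0.96 ± 0.40, and those of Spruce_30083, Spruce_27080 and Spruce_14394 were −1.16 ± 0.43, −1.30 ± 0.49 and −0.84 ± 0.34. In Spruce_30083 the 2 arrays of genotype 76 read 15.97 and 12.41 and the 2 of genotype 61 read 15.95 and 12.34, so replicates of 1 genotype lay further apart than all the fast arrays, 13.83 to 15.99. Under the authors' deposited table with its own column names, Spruce_04670, Spruce_14394 and Spruce_01018 turned to positive differences.

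Between ages no member passed with genotype as a term (0 of 200, background 0%, limma), and the smallest adjusted p of a member was 0.332. Without adjustment, p was below 0.05 for 12 members higher at 18 months (background 4.25%) and 10 lower (background 4.52%), in all 11% against 8.77%. The difference, 18 minus 5 months, was above 0 for 115 members and below 0 for 85, and with each array centred on its median in place of quantile normalisation 139 were above and 61 below. Its median was 0.05 among members and 0.04 among all probes. The 95% interval of the median member extended 0.76 log2 units each way, and 77 members had their interval within 1 log2 unit of 0.

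Spruce_30935 had the smallest p between ages. At 5 months it read 15.03 in genotype 20, 14.74 in genotype 35, and 13.29 and 13.89 in genotype 52. At 18 months these genotypes read 15.74 and 15.12, 15.76 and 15.74, and 15.67 and 15.94, above their own 5-month arrays in each of the 3 genotypes. The fitted difference was 1.35 ± 0.34 (SE, limma adjusted p = 0.332). Spruce_14767 followed the same order, with 14.96, 14.75, 13.68 and 14.21 at 5 months and 15.30 to 15.82 in those genotypes at 18 months, without overlap. Its fitted difference was 1.02 ± 0.29 (limma adjusted p = 0.343). Genotypes sampled at 18 months only read as low as 14.11 and 14.22 in these probes, within the range of the 5-month arrays.

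The other 3 members of smallest p were lower at 18 months, and the 3 lowest readings of each fell on 1 scan day. Spruce_15715 read 15.99 in genotype 20, 15.98 in genotype 35, and 15.99 and 15.83 in genotype 52 at 5 months. At 18 months it read 14.08 on fast replicate 4 (genotype 20), and 12.55 and 13.13 on the arrays of genotype 52. Those are the 3 arrays of scan day 4, while the second array of genotype 20, scanned on day 7, read 15.94 and those of genotype 35 read 15.86 and 15.83. The fitted difference was −1.64 ± 0.46 (limma adjusted p = 0.343).

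Spruce_20081 read the scanner maximum on all 4 5-month arrays and 14.61, 14.09 and 14.03 on the arrays of scan day 4, below the 14.88 to 15.99 of the other 12 18-month arrays. Genotype 52 was at least 3.80-fold brighter at 5 months than at 18 months in this probe, with a fitted difference over genotypes of −1.09 ± 0.35 (limma adjusted p = 0.402). Spruce_29804 read 14.02, 14.01 and 13.94 on the day 4 arrays and 14.11 to 15.25 on all others, so the next array lay close to those of day 4. Its fitted difference was −0.83 ± 0.28 (limma adjusted p = 0.433). Within period 1 alone 4 members were called, all lower at 18 months (background 2.13%), among them Spruce_15715 at −2.53 (adjusted p = 0.0143) and Spruce_20081 at −1.70 (adjusted p = 0.0314, limma). In that period both 18-month arrays of genotype 52 and the 18-month array of genotype 20 were of day 4, and the contrasts of age and of day cannot be told apart in that period.

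**Figure D5:**
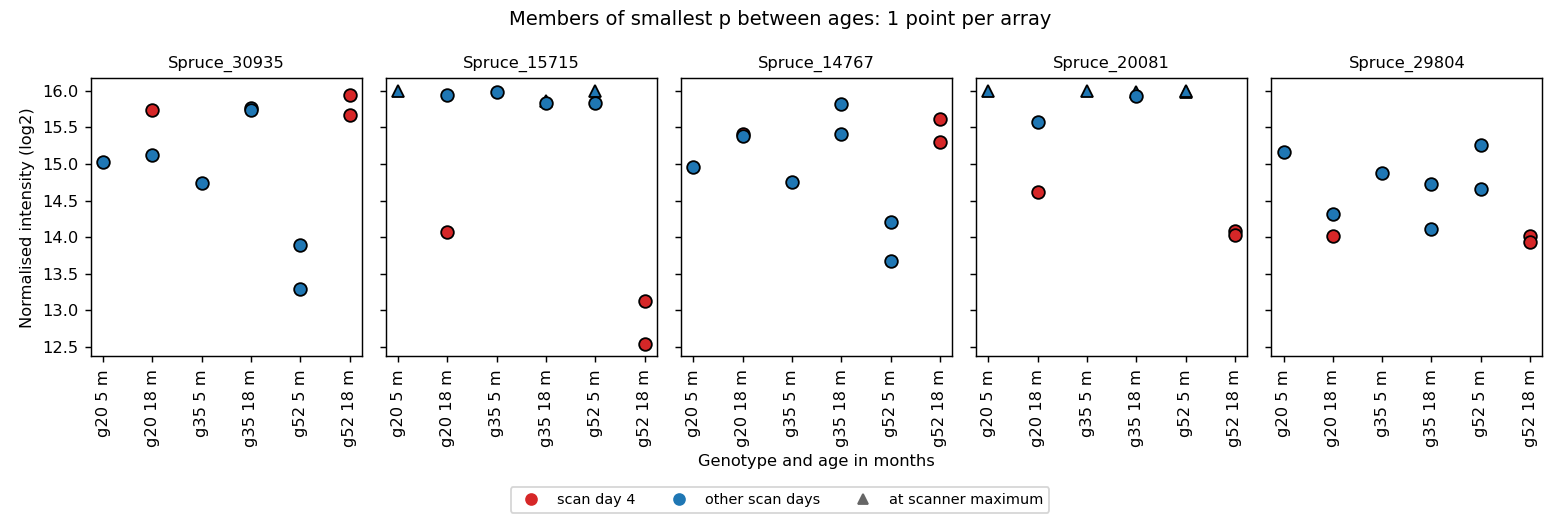
Normalised log2 intensity of the 5 members of smallest p between ages, for genotypes 20, 35 and 52 at 5 and 18 months, 1 point per array; red points are the 3 arrays of scan day 4 and triangles are readings at the scanner maximum. The red points are lowest in Spruce_15715, Spruce_20081 and Spruce_29804, and the 5-month points lie below the 18-month points in Spruce_30935 and Spruce_14767.

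This pattern was not common in the set. Counted after it had been seen, 4 members (2% of 200) had the day 4 arrays as their 3 lowest, namely Spruce_12627, Spruce_20081, Spruce_15715 and Spruce_29804, and 4 had them as their 3 highest. Among the other 2413 probes always above background the shares were 4.52% and 1.24%. The labels say nothing of the scan days, and the part of day 4 in these readings was not tested.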

How the data were processed

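The 19 one-colour scanner files were used as deposited. They hold unnormalised intensity values per the file headers, as the median pixel of each spot and of its local background. They also hold a net intensity, which was used as given and is not exactly the difference of these medians. The labels and headers name no image software. The authors' deposited series table holds log2 values whose processing no label or header records. Its scale was inferred from the range of its values, its column medians run from 1.43 to 5.08, whether it was centred stays unknown, and it served only as an alternative, joined by spot number (correlation with the scanner means across spots 0.987). Of 34992 spots, 2848 controls were dropped after background correction.

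Ranks used net intensity. Fits used limma 3.58.1 in R 4.3.3: normexp with an offset of 50 on spot and background medians, quantile normalisation, log2, and probes above background on at least 4 arrays (16012 kept, 16132 left out). Readings at the scanner maximum take slightly different values through the background correction, and quantile normalisation keeps their order within an array. Tests were a moderated F-test over genotypes (15 arrays), slow minus fast on genotype means, and 18 minus 5 months with genotype as a term (19 arrays), with Benjamini-Hochberg adjustment over all probes kept and a threshold of 0.05. Scripts were tested on simulated data. The number of arrays limits the precision, and readings at the scanner maximum are lower bounds. Genotype 15 had 1 array.

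Members, rules and tests were chosen with earlier results of these data known. Named members are the 12 of highest mean rank, the 5 most often at the maximum, the 3 on either side of the edge, the 5 of smallest p in each comparison, the 5 of largest and the 5 of smallest spread among members never at the maximum, and the 5 that fell lowest on any array. Members named for the scan day or for varying together were chosen after their values were seen. Replicate numbers follow the order of deposit and pair no samples. Alternatives covered the background correction, normalisation, filter, readings at the maximum, prior variance, scan period, genotype 76, single arrays and the deposited table. No table column lacked a sample (0).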

Additional observations from a re-analysis of the deposited data

Results flagged for a closer look

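In 52 sets of readings, each 1 named member or array measure in 1 growth class at 18 months, the highest and lowest arrays were set against the rest with Dixon's gap test at its 95% level. Another 38 sets that held a reading at the scanner maximum were not tested. Chance alone marks about 1 in 20 sets picked without regard to their readings, and 12 readings stood apart. That rate does not apply to the 7 members named for a large spread or for a low place on some array, since they were picked for such readings, and 8 of the 12 readings are theirs. The other named members were also picked on these arrays, by p, rank or small spread, so the rate need not hold for them either. Among them, Spruce_04670 and Spruce_01018 were named for a small p between growth classes. No explanation of them was tested.

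On slow 18-month replicate 2 (genotype 76) the mean rank correlation with the other arrays over members was 0.154, where the next lowest slow 18-month array had 0.427. The same array was far below the others of its class in 5 members, in normalised log2 intensity. Spruce_08828 read 10.30 (next 14.97), Spruce_04234 read 10.76 (next 14.95), Spruce_10284 read 10.92 (next 15.53), Spruce_05300 read 11.64 (next 14.40) and Spruce_07984 read 10.76 (next 14.60). The other array of genotype 76 was not low in these 5 members.

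The genotype 15 array was lowest of the fast 18-month arrays in 3 members. Spruce_04234 read 13.59 (next 15.35), Spruce_10284 read 13.71 (next 15.09) and Spruce_09510 read 12.02 (next 14.26). Genotype 15 has no second array to set beside these readings.

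Single readings stood apart in 3 further members. Spruce_04670 read 11.97 on slow 18-month replicate 1 (next 14.14), Spruce_21351 read 12.46 on slow 18-month replicate 3 (next 13.84) and Spruce_01018 read 15.17 on fast 18-month replicate 2 (next 15.55).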

How the results depend on the processing

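The set itself held under the ranking alternatives, which shared 166 to 200 probes with it. With single arrays left out, and the background condition set on the remaining arrays, the lists shared 171 to 199 with it. The files' saturation column gives 0 readings at the maximum in place of 484. The number of members called between genotypes, 1 as reported, was 0 with normexp without an offset (0.525% of all probes called), with readings at the maximum missing (0.595%, 152 members testable), with scan period as a term (0.319%) and in the deposited table with its columns centred (0.00625%). It was 4 with no background correction (0.525%), 3 with no filter on dim probes (0.342%), 5 without genotype 76 (3.75%), 5 in the deposited table as it stands (16.9%), 20 within period 1 (15.2%) and 20 within period 2 (14.5%), and it ranged from 0 to 39 when single arrays were left out (0.125% to 33.3%). No alternative called a member between growth classes. Between ages 4 members were called within period 1 and none under the other alternatives. Differences turned sign for some named members. Between classes Spruce_04670 was 0.34 in the deposited table and 0.43 with its columns centred, Spruce_14394 was 0.52 and 0.60, Spruce_01018 was 0.24 and 0.33, Spruce_27080 was 0.047 with columns centred, and Spruce_14394 was 0.018 within period 2. Between ages Spruce_15715 was 1.27, Spruce_20081 1.21 and Spruce_29804 0.61 in the deposited table as it stands, whose columns have unequal medians. The cause of these changes was not tested. The spot mean in place of the median was not run because the scanner files hold no spot mean, and no genotype was scanned at both ages within period 2. No paired analysis was possible because replicate numbers follow the order of deposit. Levels above the scanner maximum were not measured, and each genotype had 1 or 2 arrays at 18 months.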
